A study of Mus musculus with 4 samples.

Results

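The complement and lectin pathway genes of mouse liver were followed in hemojuvelin knockout and wild type animals. They comprise 34 listed genes among the 21710 protein-coding genes of the annotation. Of those 21710, 11500 had assembled loci that spanned at least 50% of a transcript in some library. Values of the listed genes were taken from the assembled loci that overlap the GRCm38 exons of each gene. The 34 fall into classical (5), lectin (7), alternative (4) and terminal (6) pathway components and regulators and receptors (12). Of these, 26 had a usable value in all 4 libraries and were compared between genotypes, and 8 were not. The knockout libraries (2) came from livers of male C57BL/6 background mice homozygous for a disrupted Hjv gene, which encodes hemojuvelin, a protein of the hepatocyte surface that helps bone morphogenetic proteins (BMPs) to induce hepcidin. The labels name no tissue or Cre driver that would limit the disruption to some cells. The wild type libraries (2) came from male C57BL/6 mice. Both genotypes received AIN-93G chow low in iron (2.5 mg per kg) for 50 days from 5 weeks of age, and liver was taken at 12 weeks, so the controls were iron-restricted too.

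Complement is a cascade of plasma proteins, most of them made by hepatocytes, that tags microbes and damaged cells and can perforate their membranes. It starts through antibody-bound C1 (classical pathway), through sugar-binding lectins with their associated proteases (lectin pathway) or through slow spontaneous activation of C3 (alternative pathway). All these routes converge on cleavage of C3 and then C5, after which C5b, C6, C7, C8 and C9 assemble into the membrane attack complex. Soluble and membrane-bound regulators limit each step on host cells. Several components are also acute phase proteins, whose genes respond to IL-6 through STAT3 and to C/EBP factors.

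Levels are FPKM (fragments per kilobase of transcript, relative to all mapped fragments), scaled between libraries and called scaled FPKM. Depth was read from the spacing of the confidence bounds that short loci carry. Taking that spacing as 1 fragment gives 55.0 and 132 M fragments for knockout and 87.0 and 51.3 M for wild type. Assembly was most broken up in knockout replicate 1, with 56237 loci, against 30190 in knockout replicate 2 and 41541 and 26238 in the wild type libraries. Hjv, annotated as Hfe2, was not assembled in knockout replicate 1 and reached 0.237 scaled FPKM in knockout replicate 2, over 14.3% of its length, against 9.22 and 29.6 in the wild type libraries. Whether the libraries come from separate animals is not stated, so p-values measure the spread between these libraries, which may be technical. The smallest p that an exact permutation test over 2 and 2 libraries allows is 0.33. Hepatocyte marker genes added up to 5263 and 6703 scaled FPKM in the knockout libraries and 4956 and 4228 in the wild type libraries, over 4 of 8 markers. Of these 4, Apoa1, the largest in every library, lay above with 3420 and 5013 in knockout against 2643 and 1601 in wild type. Pck1 lay below with 533 and 617 in knockout against 822 and 986 in wild type. Apob and Cps1 overlapped, and the median log2 difference of the 4 was -0.37. Albumin (Alb) and Serpina1a, both defining hepatocyte genes, had no usable locus in any library, so a gene without a locus is not a gene at 0.

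C6 and C9, which encode components of the membrane attack complex, had the largest differences among the complement genes that were lower in both knockout libraries. The lectin pathway genes Colec10 and Colec11 lay higher in both. Levels of the central component C3 overlapped between the genotypes. By limma with Benjamini-Hochberg adjustment over 7924 genes, 0 of the 26 tested members passed an adjusted p under 0.05, and 0% of all genes did. At an unadjusted p under 0.05, 2 members were higher in knockout and 3 were lower, where 5.86% of all genes were higher and 5.36% lower.

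For 4 of the 26 tested members the knockout pair lay wholly above the wild type pair, or 15.4%, against 22.3% of all genes. It lay wholly below for 10, or 38.5%, against 23.8% of all genes, and the groups overlapped for 12. With a difference of at least 1.5-fold on the log2(scaled FPKM + 1) scale as well, 2 members lay above (8.40% of all genes) and 4 below (5.77% of all genes). The median log2 difference, knockout minus wild type, was -0.19 over the members and 0.02 over all genes tested. All 26 members also passed a filter of 5 FPKM, which left 5082 genes. Of these genes 18.0% lay above and 31.3% below, with a median of -0.06. Genes at higher levels thus lay below more often on this scale, members or not. On the deposited scale 7 members lay above and 6 below, with 35.8% of all genes above and 9.22% below, and the median was 0.02 over the members and 0.19 over all genes. The split of members between above and below thus moves with the scaling, while the members' median stayed under that of all genes on both scales.

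**Figure D1:**
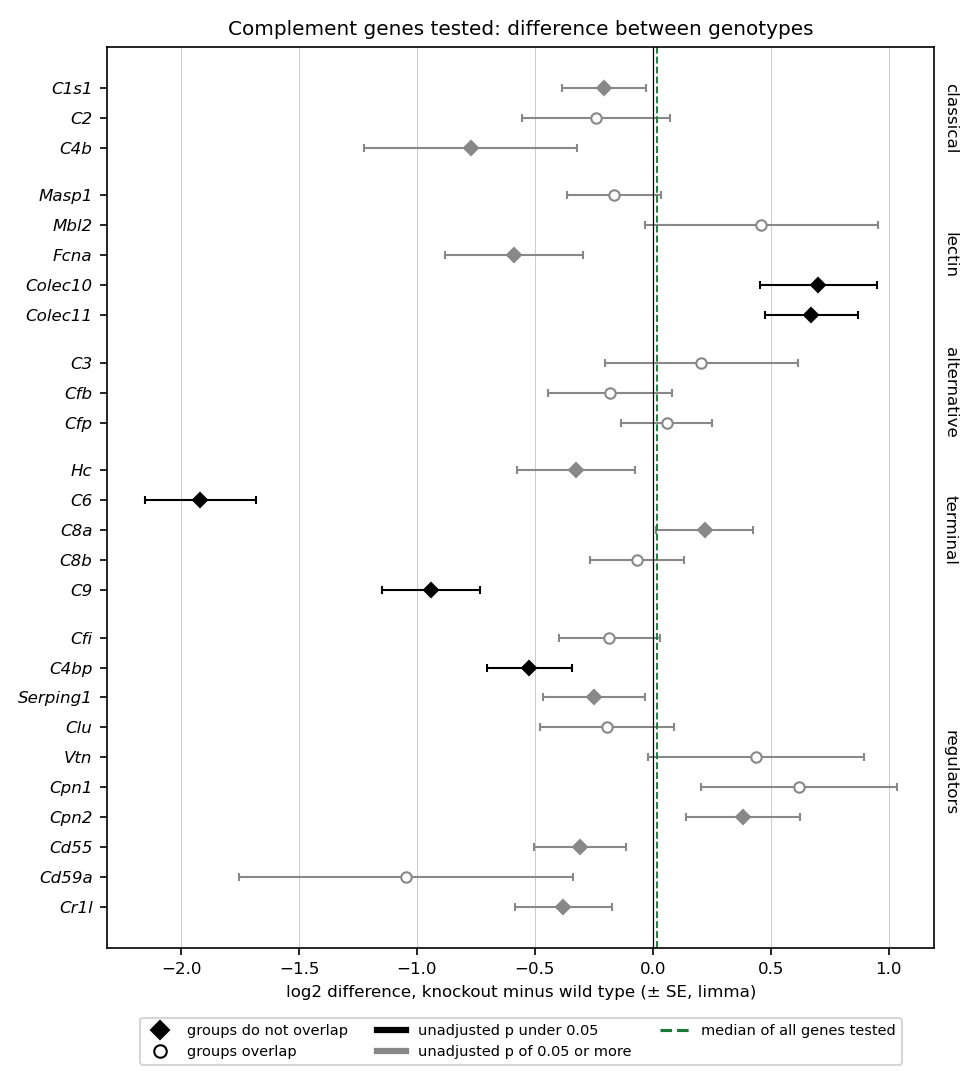
Difference of each tested complement gene between genotypes, as the log2 difference knockout minus wild type with its standard error from limma (x axis), genes grouped by pathway (y axis). C6 lies farthest to the left at -1.92 and Colec10 farthest to the right at 0.70, and the dashed line marks the median of all genes tested at 0.02.

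The members spanned a wide range of levels in liver. C3, at a mean of 765 scaled FPKM over the 4 libraries, ranked 49 among the 7924 genes tested, with vitronectin (Vtn) at 58, clusterin (Clu) at 85 and the C1 inhibitor gene Serping1 at 160. Cd55, which encodes a membrane-bound inhibitor of C3 convertases, was the lowest tested member at a mean of 6.22 scaled FPKM and ranked 4441. Among the terminal pathway genes, mean wild type levels ran between 102 and 299 scaled FPKM, and in the lectin pathway between 7.84 and 195 scaled FPKM. The listed genes sit on 15 chromosomes, and 18 of the 34 had a single usable locus in every library, not counting loci that were set aside.

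**Figure D2:**
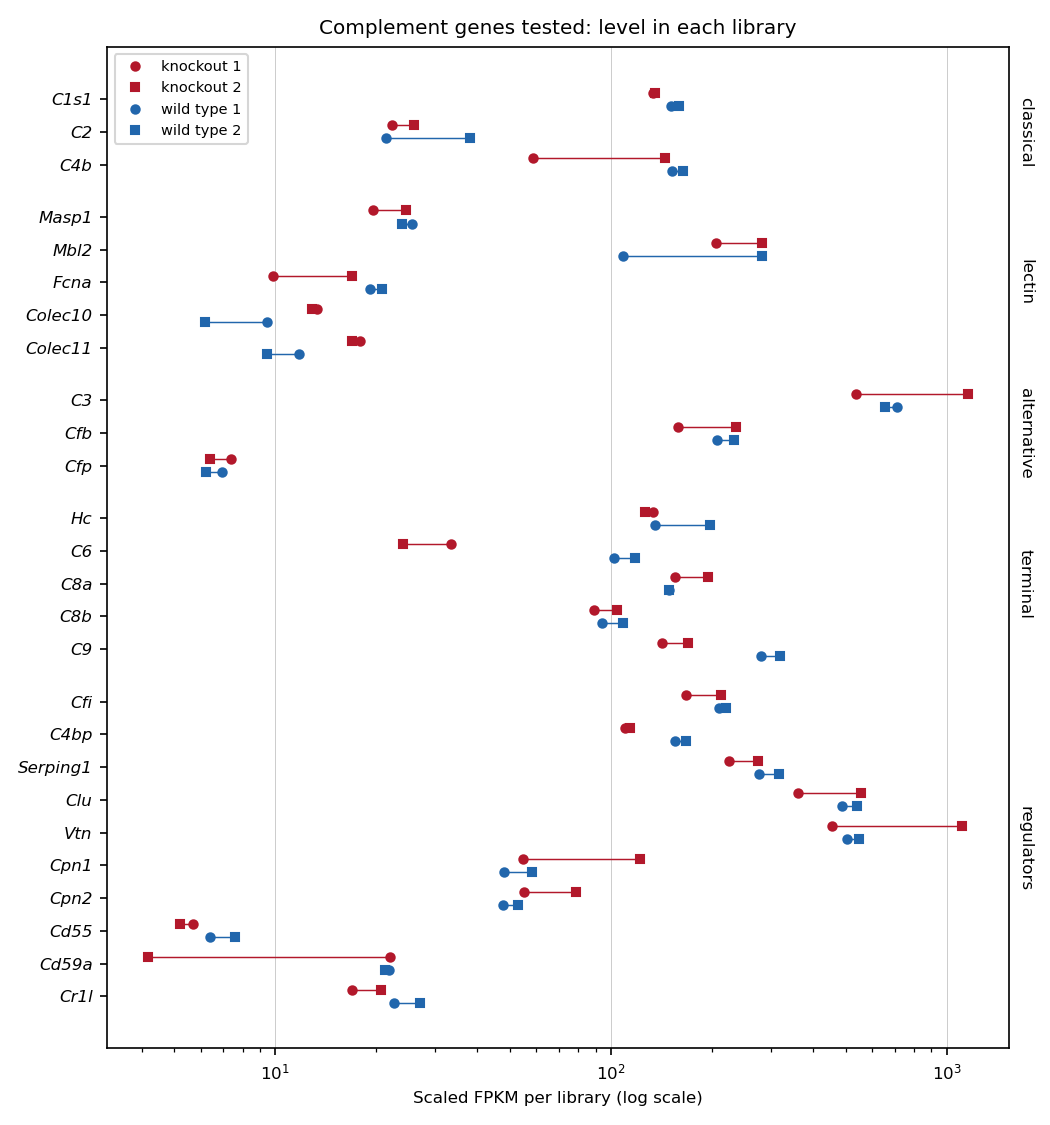
Scaled FPKM of each tested complement gene in every library on a log axis (x), knockout in red above wild type in blue, circles for replicate 1 and squares for replicate 2, with genes grouped by pathway (y). The red and blue pairs are well apart for C6 and C9, while the knockout pair is spread widely for C3, C4b, Vtn, Cpn1 and Cd59a.

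In the classical pathway, C1r and C1s are the proteases carried by C1q, and they cleave C4 and C2 to build a C3 convertase. Of the 3 classical pathway genes tested, 0 lay above (22.3% of all genes) and 2 below (23.8% of all genes) in both knockout libraries. Their median log2 difference was -0.24. C4b had 58.5 and 145 scaled FPKM in the knockout libraries, against 152 and 164 in the wild type libraries. The low value is knockout replicate 1 alone, and knockout replicate 2 lay just under the wild type pair. The log2 difference was -0.77 with an SE of 0.45 (unadjusted p = 0.149 by limma). It was -0.10 without knockout replicate 1 and -1.43 without knockout replicate 2. C4b has a near-identical paralog, C4a, which the annotation used here does not list under that name, so reads of both may be counted together.

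C1s1 averaged 134 ± 0.823 scaled FPKM in knockout and 155 ± 5.61 in wild type (SD, n = 2 each), with groups that did not overlap and a log2 difference of -0.21. C2, which supplies the catalytic part of the convertase, averaged 24.1 ± 2.58 in knockout and 29.8 ± 11.7 in wild type (SD, n = 2 each), and its groups overlapped. C1ra and C1rl, a C1r-like protease gene next to it on chromosome 6, were not tested, because knockout replicate 2 held 1 locus across both, at 51.4 FPKM as deposited. C1ra measured 79.2 scaled FPKM in knockout replicate 1, against 82.1 and 105 in the wild type libraries. C1rl measured 45.6 in knockout replicate 1, against 41.1 and 45.3 in the wild type libraries. For neither gene did knockout replicate 1 stand far from the wild type pair. C1s1 and C1ra have close paralogs, C1s2 and C1rb, that had no usable locus in any library.

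In the lectin pathway, mannose-binding lectins, ficolins and collectins recognise sugars and carry the MASP proteases. Of the 5 lectin pathway genes tested, 2 lay above (22.3% of all genes) and 1 below (23.8% of all genes) in both knockout libraries. Their median log2 difference was 0.46. Colec11, which encodes collectin CL-K1, had 17.9 and 17.0 scaled FPKM in the knockout libraries, against 11.8 and 9.47 in the wild type libraries. Colec10, which encodes the partner collectin CL-L1 of the same heteromer, had 13.3 and 12.9 scaled FPKM in the knockout libraries, against 9.48 and 6.19 in the wild type libraries. For both genes the knockout pair lay close together and above the wild type pair, in which replicate 2 was the lower.

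The mean of Colec11 was 1.64 times as high in knockout as in wild type, with a log2 difference of 0.67 and an SE of 0.20 (unadjusted p = 0.0200, Benjamini-Hochberg adjusted p = 0.418 by limma). The mean of Colec10 was 1.67 times as high, with a log2 difference of 0.70 and an SE of 0.25 (unadjusted p = 0.0373, Benjamini-Hochberg adjusted p = 0.438 by limma). Each kept its sign in all 15 alternative analyses, in a range of 0.52 to 0.87 for Colec11 and, for Colec10, of 0.42 (without wild type replicate 2) to 0.97 (without wild type replicate 1). The unadjusted p was under 0.05 in 13 of the 15 alternatives for Colec11 and in 12 for Colec10. The authors' confidence bounds, which concern a single library and not the spread between libraries, did not meet between genotypes for Colec10. As deposited they were 14.9 to 16.3 and 11.6 to 12.4 FPKM in the knockout libraries, against 8.29 to 9.03 and 5.20 to 6.05 FPKM in the wild type libraries. Such bounds do not always hold the deposited FPKM. For Colec11 in knockout replicate 1 they were 17.6 to 20.4, with a deposited value of 21.5 FPKM.

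Both collectins are known from hepatic stellate cells. The other listed stellate cell markers added up to 103 and 112 scaled FPKM in the knockout libraries and 96.6 and 79.2 in the wild type libraries, over 5 of 6 markers. Most of each sum was Dcn, with 73.1 and 60.4 in the knockout libraries, against 70.5 and 57.7 in the wild type libraries. Ecm1 had 15.8 and 37.6 in the knockout libraries, against 17.4 and 14.7 in the wild type libraries. Of these 5 markers, Lrat, Reln and Hgf lay above in both knockout libraries (22.3% of all genes). Dcn and Ecm1 overlapped, 0 lay below (23.8% of all genes), and Des was not tested. Lrat, the retinol acyltransferase that marks these cells, had 3.24 and 2.57 scaled FPKM in the knockout libraries, against 1.85 and 1.77 in the wild type libraries. The part of the stellate cell markers in the collectin difference was not tested, and in bulk tissue fewer or more cells of a type cannot be told apart from less or more RNA per cell.

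Fcna, which encodes ficolin A and is known from liver macrophages, had 9.84 and 17.0 scaled FPKM in the knockout libraries, against 19.1 and 20.8 in the wild type libraries. Both knockout values lay below, knockout replicate 1 farther than knockout replicate 2. The log2 difference was -0.59 with an SE of 0.29 (unadjusted p = 0.102 by limma), and it was -0.19 without knockout replicate 1 and -0.96 without knockout replicate 2. It was -1.07 when the highest locus stood for the gene, since the transcript was split into 2 loci in each wild type library. Kupffer cell markers added up to 79.2 and 107 scaled FPKM in the knockout libraries and 109 and 133 in the wild type libraries, over 7 of 8 markers. Of these 7, Clec4f, Vsig4, Adgre1 and Cd68 lay below in both knockout libraries (23.8% of all genes). The other 3 overlapped, 0 lay above (22.3% of all genes), and Marco was not tested. The part of the Kupffer cell markers in the Fcna difference was not tested.

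Mbl2, which encodes mannose-binding lectin C, had 206 and 282 scaled FPKM in the knockout libraries, against 109 and 281 in the wild type libraries. The wild type pair differed more than 2-fold, and the replicate 2 libraries of both genotypes were nearly level. The groups overlapped, and the log2 difference of 0.46 was -0.23 once wild type replicate 1 was left out. That library's Mbl2 locus ran past the gene end at 30239687, to 30240905, and spanned 100% of the transcript. The knockout loci spanned 71.1% and 71.3% of it, and the locus of wild type replicate 2 spanned 91.3%. The Mbl2 values thus cover different bases, and the part of this in the low value was not tested. Mbl1, which encodes mannose-binding lectin A, could not be compared, since in 3 libraries its locus ran beyond the gene. As deposited these loci measured 20.2 and 15.5 FPKM in the knockout libraries and 16.3 FPKM in wild type replicate 1. In wild type replicate 2 a shorter locus that spanned 44.1% of the transcript measured 85.5 FPKM. These loci cover different bases, so no direction is given.

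The protease gene Masp1, whose transcripts also encode MASP-3, averaged 22.1 ± 3.46 scaled FPKM in knockout and 24.7 ± 1.11 in wild type (SD, n = 2 each), and its groups overlapped. Masp2, the protease that cleaves C4 and C2, had no usable locus in any library, because each locus also took in exons of Tardbp on the opposite strand. As deposited those joint loci measured 32.6 and 72.1 FPKM in the knockout libraries, against 36.6 and 35.0 FPKM in the wild type libraries. The values cannot be divided between the 2 genes.

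In the alternative pathway, factor B (Cfb) joins C3b to form the convertase, factor D (Cfd) cleaves factor B, and properdin (Cfp) stabilises the complex. Of the 3 alternative pathway genes tested, none lay wholly above (22.3% of all genes) or below (23.8% of all genes) in knockout. Their median log2 difference was 0.06. C3 had 537 and 1157 scaled FPKM in the knockout libraries, against 712 and 656 in the wild type libraries. The knockout pair enclosed the wild type pair, with replicate 1 below it and replicate 2 above it. Its log2 difference of 0.21 (SE 0.41) became 0.79 without knockout replicate 1 and -0.36 without knockout replicate 2, so C3 has no direction here.

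Cfb averaged 197 ± 54.4 scaled FPKM in knockout and 220 ± 18.7 in wild type (SD, n = 2 each), a log2 difference of -0.18. Properdin averaged 6.89 ± 0.725 in knockout and 6.57 ± 0.50 in wild type (SD, n = 2 each), a log2 difference of 0.06. The groups of both overlapped. Cfd, best known as adipsin of fat cells, had no locus in any library. Of the other adipocyte markers, Adipoq, Plin1 and Retn likewise had no locus in any library, and 2 of 6 were tested. Their summed level was 802 and 1254 scaled FPKM in the knockout libraries and 636 and 691 in the wild type libraries, nearly all of it from Car3, an enzyme that hepatocytes make too. Fabp4 had 6.09 and 4.53 scaled FPKM in the knockout libraries, against 50.4 and 38.9 in the wild type libraries.

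The terminal pathway held the largest difference among the tested members. Of its 5 tested genes 1 lay above (22.3% of all genes) and 3 below (23.8% of all genes) in both knockout libraries. Their median log2 difference was -0.33. C6, which binds C5b to start the attack complex, had 33.3 and 24.0 scaled FPKM in the knockout libraries, against 102 and 118 in the wild type libraries. Both knockout values lay far below the lower wild type value. C9, which polymerises into the pore, had 142 and 169 scaled FPKM in the knockout libraries, against 280 and 319 in the wild type libraries. Here too neither pair came near the other. The 2 genes lie on chromosome 15 in the same direction, C6 at 4727175 to 4814967 and C9 at 6445327 to 6498751 (GRCm38), 1.63 Mb apart.

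The mean of C6 in knockout was 0.261 of that in wild type, with a log2 difference of -1.92 and an SE of 0.23 (unadjusted p = 0.000504, Benjamini-Hochberg adjusted p = 0.264 by limma). The difference ranged from -2.12 to -1.70 over 15 alternatives, with an unadjusted p under 0.05 in each. Its adjusted p ranged from 0.0276, reached without knockout replicate 1, to 0.998. The mean of C9 in knockout was 0.521 of that in wild type, with a log2 difference of -0.94 and an SE of 0.21 (unadjusted p = 0.00658, Benjamini-Hochberg adjusted p = 0.400 by limma). It ranged from -1.07 to -0.73, with an unadjusted p under 0.05 in 14 of the 15 alternatives. The authors' confidence bounds for C6 were 38.4 to 41.7 and 22.3 to 23.8 FPKM as deposited in the knockout libraries, against 95.2 to 98.5 and 115 to 121 FPKM in the wild type libraries. For C9 the bounds did not always hold the deposited value, which was 171 FPKM in knockout replicate 1 with bounds of 154 to 160.

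The other terminal components did not share this size of difference. C8a and C8b, neighbours on chromosome 4, encode the subunits that insert into the membrane. C8a averaged 174 ± 27.6 scaled FPKM in knockout and 149 ± 0.0929 in wild type (SD, n = 2 each), above in both knockout libraries with a log2 difference of 0.22. C8b averaged 96.9 ± 10.8 in knockout and 102 ± 10.5 in wild type (SD, n = 2 each), a log2 difference of -0.07 with groups that overlapped. C8g, the lipocalin-like subunit, was not tested, since under 50% of its transcript was assembled in 2 libraries. It had 513 and 132 scaled FPKM in the knockout libraries, against 517 and 171 in the wild type libraries. The high values are those of the replicate 1 libraries, whose loci spanned 44.8% of the transcript in knockout and 44.5% in wild type, against 85.7% in knockout replicate 2 and 99.6% in wild type replicate 2.

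Hc, the mouse gene for C5, had 133 and 127 scaled FPKM in the knockout libraries, against 135 and 197 in the wild type libraries. Both knockout values lay just below the lower wild type value. The log2 difference of -0.33 (SE 0.25) turned to 0.41 when the highest locus stood for the gene, because Hc was assembled as 1 locus in each wild type library and as 2 in each knockout library. With wild type replicate 1 left out it was -0.61, and leaving out wild type replicate 2 gave -0.07. The locus toward the end of the transcript had 265 FPKM as deposited over 3025 exonic bases in knockout replicate 1. In knockout replicate 2 it had 202 FPKM over 873 exonic bases. The locus toward the start of the transcript had 59.9 FPKM over 3211 exonic bases in knockout replicate 1. In knockout replicate 2 it had 107 FPKM over 5243 exonic bases. The knockout libraries thus break Hc at different places, and these loci cover different bases.

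The bases upstream of 4 genes are shown because they are 4 of the 5 members at an unadjusted p under 0.05, with C6, C9 and C4bp lower and Colec11 higher in knockout. The other is Colec10. They are credited to RefSeq, build GRCm38.p6. Each sequence is the 250 bases before the transcription start, 5′ to 3′ in the direction of the gene, with matches to any of 4 motifs in capitals. They lie at chr15:4726960-4727209 on the plus strand for C6, chr15:6445096-6445345 on the plus strand for C9, chr1:130661619-130661868 on the minus strand for C4bp and chr12:28623331-28623580 on the minus strand for Colec11.
C6: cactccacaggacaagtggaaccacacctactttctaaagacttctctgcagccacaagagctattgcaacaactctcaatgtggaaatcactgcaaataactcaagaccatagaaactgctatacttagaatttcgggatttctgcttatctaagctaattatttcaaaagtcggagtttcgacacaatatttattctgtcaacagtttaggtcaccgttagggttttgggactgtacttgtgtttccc
C9: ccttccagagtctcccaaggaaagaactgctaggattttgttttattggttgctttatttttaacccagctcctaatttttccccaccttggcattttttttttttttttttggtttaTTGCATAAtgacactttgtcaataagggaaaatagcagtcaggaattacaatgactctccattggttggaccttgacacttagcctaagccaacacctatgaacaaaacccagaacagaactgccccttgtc
C4bp: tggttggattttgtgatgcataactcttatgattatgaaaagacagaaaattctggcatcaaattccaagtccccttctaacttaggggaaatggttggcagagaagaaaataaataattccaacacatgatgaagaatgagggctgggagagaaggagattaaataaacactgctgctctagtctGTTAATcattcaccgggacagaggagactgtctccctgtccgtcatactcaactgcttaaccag
Colec11: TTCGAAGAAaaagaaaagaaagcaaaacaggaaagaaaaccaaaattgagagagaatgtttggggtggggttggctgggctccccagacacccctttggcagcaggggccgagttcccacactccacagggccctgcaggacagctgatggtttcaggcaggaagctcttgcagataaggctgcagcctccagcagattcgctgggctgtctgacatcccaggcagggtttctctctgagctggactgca

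The motifs were searched on both strands, over the 250 bases before and the 50 after the start. They were TTCNNNGAA (bound by STAT factors), TTGCNNAA (C/EBP), GGCGCC (the BMP response element known from the hepcidin promoter) and GTTAAT (an HNF1 motif). C6 matched none of them, C9 matched C/EBP as TTGCATAA, C4bp matched GTTAAT and Colec11 matched STAT as TTCGAAGAA, and no matches overlapped in these 4. Of the 26 members with a RefSeq promoter, 6 matched STAT, 6 C/EBP, 0 the BMP response element and 9 the HNF1 motif. Of all 32851 promoters of that length, 8.30% matched STAT, 10.8% C/EBP, 11.9% the BMP response element and 7.10% the HNF1 motif. A match is only a run of letters, and its absence says nothing of a factor.

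Among the regulators, C4bp encodes the C4b-binding protein, a cofactor for the cleavage of C4b by factor I. Of the 10 regulators tested, 1 lay above (22.3% of all genes) and 4 below (23.8% of all genes) in both knockout libraries. Their median log2 difference was -0.22. C4bp had 110 and 114 scaled FPKM in the knockout libraries, against 156 and 167 in the wild type libraries. Each pair was tight and both knockout values were the lower. Its mean in knockout was 0.693 of that in wild type, with a log2 difference of -0.52 and an SE of 0.18 (unadjusted p = 0.0348, Benjamini-Hochberg adjusted p = 0.438 by limma). The sign was kept in all 15 alternatives and the unadjusted p was under 0.05 in 9 of them, with -0.32 on the deposited scale.

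Factor I itself (Cfi) averaged 190 ± 32.5 scaled FPKM in knockout and 215 ± 8.14 in wild type (SD, n = 2 each), with groups that overlapped. Serping1, whose product C1 inhibitor blocks C1r, C1s and the MASPs, averaged 249 ± 35.3 in knockout and 296 ± 28.7 in wild type (SD, n = 2 each), below in both knockout libraries with a log2 difference of -0.25. Of the membrane-bound regulators, Cr1l (Crry, the rodent inhibitor of C3 convertases) averaged 18.8 ± 2.58 in knockout and 24.7 ± 3.10 in wild type (SD, n = 2 each), a log2 difference of -0.38. Cd55 averaged 5.44 ± 0.33 in knockout and 6.99 ± 0.855 in wild type (SD, n = 2 each), a log2 difference of -0.31. Both lay below in the 2 knockout libraries at an unadjusted p over 0.05.

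Cd59a, which blocks the addition of C9 to the pore, had 21.9 and 4.19 scaled FPKM in the knockout libraries, against 21.9 and 21.2 in the wild type libraries. Knockout replicate 2 alone was low and knockout replicate 1 stood with the wild type pair. The log2 difference of -1.05 (SE 0.71) was 0.018 without knockout replicate 2 and -2.08 without knockout replicate 1, where the Benjamini-Hochberg adjusted p by limma was 0.0276 within a range of 0.0276 to 0.998 over 15 alternatives. The paralog Cd59b was not tested, having no usable locus in knockout replicate 1. It had 2.65 scaled FPKM in knockout replicate 2, against 6.97 and 2.52 in the wild type libraries. Whether reads that Cd59a and Cd59b share were divided in different ways between libraries was not tested. Cd55b, the paralog of Cd55, had no usable locus in any library. The Cd59a loci also differ in extent. Past the end of the gene at 104115354, they ran to 104119526 in knockout replicate 2 and to 104116695 and 104117062 in the wild type libraries. In knockout replicate 1 the locus used ended inside the gene, at 104114917. What these extents add to the low value was not tested.

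Vitronectin and clusterin hold forming attack complexes in solution. Vtn had 456 and 1112 scaled FPKM in the knockout libraries, against 504 and 549 in the wild type libraries. Its knockout pair enclosed the wild type pair, and the log2 difference of 0.44 (SE 0.46) became -0.21 without knockout replicate 2 and 1.11 without knockout replicate 1. Clu averaged 459 ± 139 in knockout and 513 ± 37.2 in wild type (SD, n = 2 each), with groups that overlapped. Cpn1 and Cpn2 encode the catalytic and the regulatory subunit of carboxypeptidase N, which inactivates the peptides C3a and C5a. Cpn1 had 54.6 and 122 scaled FPKM in the knockout libraries, against 48.2 and 58.1 in the wild type libraries. Knockout replicate 2 was the high library for Cpn1, and the log2 difference of 0.62 became 0.04 without it and 1.22 without knockout replicate 1. Cpn2 averaged 66.8 ± 16.7 in knockout and 50.3 ± 3.84 in wild type (SD, n = 2 each), above in both knockout libraries with a log2 difference of 0.38.

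The receptors C3ar1 and C5ar1, which bind C3a and C5a, were at the bottom of the range and were not tested, since too little of the transcript was assembled. C3ar1 had 1.25 and 0.559 scaled FPKM in the knockout libraries, against 1.11 and 1.54 in the wild type libraries. C5ar1 had 2.17 and 0.561 scaled FPKM in the knockout libraries, against 2.36 and 1.08 in the wild type libraries. For C3ar1 the value of knockout replicate 1 rests on 7.11% of the transcript, and for C5ar1 those of the replicate 1 libraries rest on 31.8% in knockout and 24.1% in wild type.

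**Figure D3:**
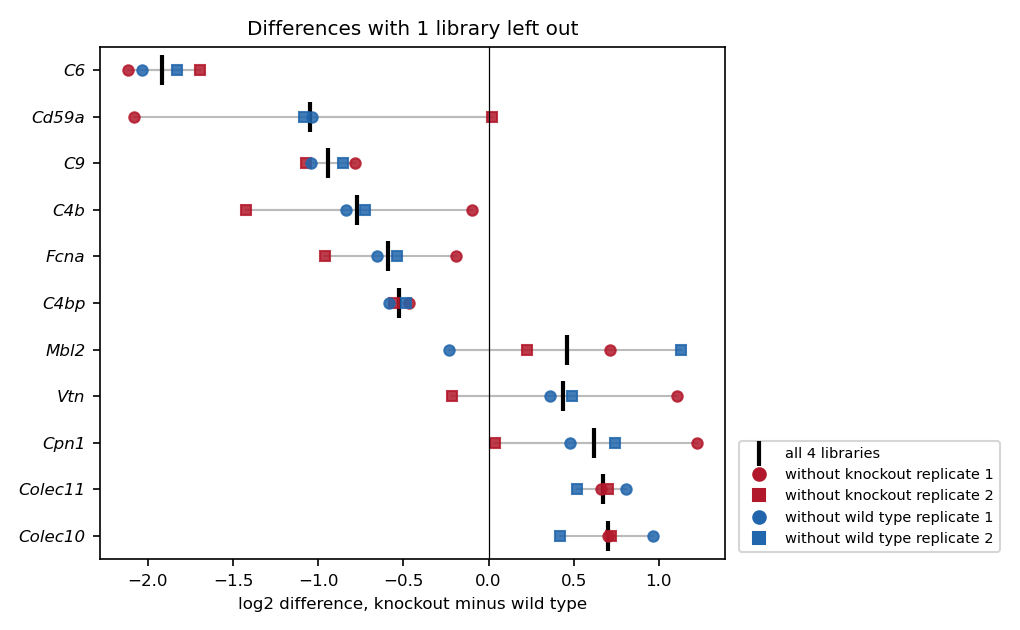
Log2 difference, knockout minus wild type (x axis), of 11 complement genes (y axis) with all 4 libraries (black bars) and with each library left out in turn (red for a knockout, blue for a wild type library). C6, C9 and C4bp stay left of 0 and Colec10 and Colec11 right of it, while Mbl2, Vtn and Cd59a cross 0 when 1 library is left out.

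Several members with a wide knockout pair are rich in GC, but not all. Cd59a had the widest pair of the tested members, with a log2 difference of -2.14 for knockout replicate 2 minus replicate 1, and 44.6% GC. Cfp had 56.3% GC and a difference of -0.19 between these libraries. Over all 7924 genes, the log2 difference of knockout replicate 2 from knockout replicate 1 followed the GC content of the transcript with a Spearman coefficient of 0.478, against 0.263 for the wild type pair. Over the 26 tested members the coefficient in the knockout pair was 0.583, as a description of genes that share these 2 libraries. The 12 members over 52% GC, a limit chosen after the values were seen, had a median difference of 0.60, and the other 14 had 0.14. The GC content was 55.3% for C4b, 53.3% for C3, 55.3% for Vtn and 56.2% for Cpn1, the members with the widest GC-rich knockout pairs. It was 46.6% for C6, 43.4% for C9, 41.0% for C4bp, 40.9% for Colec10 and 53.4% for Colec11. After a correction for GC content the log2 difference was -1.82 for C6, -0.84 for C9, -0.44 for C4bp, 0.79 for Colec10 and 0.58 for Colec11. It was -0.98 for C4b, 0.12 for C3, 0.23 for Vtn and 0.34 for Cpn1.

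**Figure D4:**
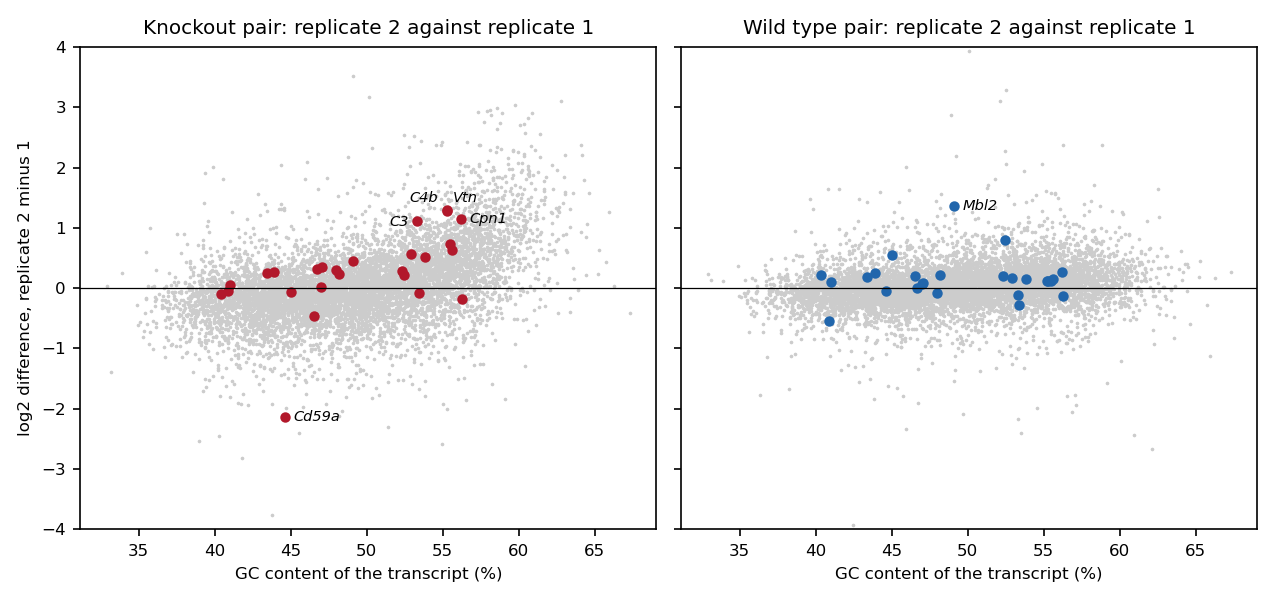
Log2 difference of replicate 2 from replicate 1 (y axis) against the GC content of the transcript in percent (x axis), for the knockout pair (left) and the wild type pair (right), with all tested genes in grey and complement genes in colour. In the knockout pair C4b, C3, Vtn and Cpn1 lie above 1 among GC-rich genes and Cd59a below -2, while 5 genes of the knockout pair and 6 of the wild type pair lie outside the axis limits of 4 and are not drawn.

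A further list of 28 complement genes outside the members, of which 12 were tested, held 1 gene above (22.3% of all genes) and 5 below (23.8% of all genes) in both knockout libraries, with a median log2 difference of -0.06. Apcs, serum amyloid P component, a pentraxin that binds C1q, had 164 and 199 scaled FPKM in the knockout libraries, against 52.4 and 57.3 in the wild type libraries, with a log2 difference of 1.71 (Benjamini-Hochberg adjusted p = 0.264 by limma). Crp, the related pentraxin C-reactive protein, lay the other way with 170 and 155 scaled FPKM in the knockout libraries, against 267 and 259 in the wild type libraries, and a log2 difference of -0.69 (Benjamini-Hochberg adjusted p = 0.417 by limma). Vsig4, the C3b receptor of Kupffer cells, had 13.1 and 14.3 scaled FPKM in the knockout libraries, against 22.4 and 24.7 in the wild type libraries, with a log2 difference of -0.74 (Benjamini-Hochberg adjusted p = 0.400 by limma). The C1q chain genes C1qa, C1qb and C1qc overlapped between the genotypes. C7, the attack complex component that follows C6, had no usable locus in either knockout library and 1.52 scaled FPKM in wild type replicate 1 alone.

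The list of acute phase genes, which holds Apcs and Crp as well, had 19 of 29 members tested, 3 above and 6 below in both knockout libraries, beside the same shares of all genes, with a median log2 difference of -0.03. Saa1, serum amyloid A, had 18.8 and 14.8 scaled FPKM in the knockout libraries, against 22.1 and 40.8 in the wild type libraries, and Lrg1 had 23.2 and 86.1 in the knockout libraries, against 12.3 and 15.8 in the wild type libraries. These 2 acute phase genes lay on opposite sides, each without overlap. With a difference of at least 1.5-fold as well, 2 of the 19 lay above (8.40% of all genes) and 6 below (5.77% of all genes). Those above were Apcs and Lrg1, and those below were Saa1, Saa2, Saa3, Orm1, Fgg and Crp.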

How the data were processed

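Liver RNA was sequenced on an Illumina HiSeq from TruSeq libraries, per the labels' protocols. FastQC, TopHat and Cufflinks are listed in the submitters' processing notes, with no version, beside the build mm9, but the coordinates fit GRCm38. The deposited values are FPKM with confidence bounds in FPKM, by the authors, for loci assembled in every library on its own and without gene names. Strand handling and total fragments per library are not given in the sources used here.

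Loci were joined by position to GENCODE M21 protein-coding genes. A locus was used if at least 50% of it lay inside the gene, if another gene held no more than 25% as many of its exonic bases and if its FPKM was at most 3 times the midpoint of its bounds. The FPKM of a gene's loci were averaged with their exonic bases as weights, and the gene was used if these loci spanned at least 50% of a transcript. Of 190 loci touching members, 164 were used. Libraries were scaled by the median of ratios (factors 1.20 and 0.954 for knockout, 0.935 and 0.915 for wild type). Of 7940 genes with a value in all 4 libraries, the 7924 that reached 1 FPKM in at least 2 of them were tested. The test was limma 3.58.1 (R 4.3.3) on log2(scaled FPKM + 1), knockout minus wild type, two-sided, with a trend of variance on level. It had 2 residual and 2.88 prior degrees of freedom, and p-values were adjusted by Benjamini-Hochberg across these 7924 genes. The added 1 understates differences of low genes. The code was tested on simulated data.

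The members, gene lists and tests were chosen with earlier results of these data known. Values in every library are given for members with groups that do not overlap and at least a 1.5-fold difference, for members with a 2-fold difference within a genotype, for members that could not be tested, and for C3, Hc, C4b, Mbl1 and Mbl2. Alternatives were pseudocounts of 0.1 and 0.5, no filter, a filter of 5 FPKM, quantile normalization, the deposited scale, no variance trend, a replicate block, the highest locus of a gene, no minimum span, each library left out and, chosen after seeing the data, a GC correction.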

Additional observations from a re-analysis of the deposited data

How the results depend on the processing

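Of the 26 tested complement genes, 14 kept their sign in all 15 alternatives and 12 turned in at least 1. No gene passed the adjusted threshold by limma with all 4 libraries, except 1 higher gene on the deposited scale, which is not among the members. With 1 library left out, where the lone library is assumed to vary like the other group, 0 to 290 genes passed as higher and 1 to 96 as lower. Without knockout replicate 1 these were 290 and 96, with C6 and Cd59a among them. Complement genes whose knockout values lay above the wild type values numbered 7 on the deposited scale (35.8% of all genes). They numbered 2 of 29 with no minimum span (20.4% of all genes) and 5 to 10 with a library left out. Those below numbered 6 on the deposited scale (9.22% of all genes), 10 of 29 with no minimum span (22.3% of all genes) and 11 to 18 with a library left out. With fewer libraries groups separate more often. Without wild type replicate 1, 5 of 26 members lay above and 14 below, against 32.2% and 33.5% of all genes. Without wild type replicate 2, 7 of 26 lay above and 12 below, against 33.3% and 34.5% of all genes. Without knockout replicate 1, 10 of 27 members lay above and 11 below, against 40.2% of all genes each way, and without knockout replicate 2, 6 of 28 lay above and 18 below, against 39.0% and 38.7% of all genes. The median was 0.02 on the deposited scale and -0.28 to -0.01 with a library left out. Taking the highest locus of a gene gave 0.41 for Hc. With a library left out the log2 difference ran from -0.23 to 1.13 for Mbl2, from -0.36 to 0.79 for C3, from -0.21 to 1.11 for Vtn and from -2.08 to 0.018 for Cd59a. The cause of these turns was not tested, apart from the split loci of Hc. Over genes, the deviations of same-numbered libraries were little correlated (0.0802), which does not settle whether the replicate numbers pair the samples. Loci of 150 to 250 bases made up 38.5% of loci in knockout replicate 1 and 21.3% in wild type replicate 1. In the replicate 2 libraries they made up 4.48% in knockout and 4.49% in wild type. With a replicate block 0 genes were higher and 0 lower past the adjusted threshold by limma. With it 4 members had an unadjusted p under 0.05 by limma, as had 488 higher and 363 lower genes of all 7924. Without it 5 members had, as had 464 higher and 425 lower genes. The 8 members without a usable value in all 4 libraries could not be compared.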

Other observations

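Of the 10 genes between and including C6 and C9 on chromosome 15, 5 were tested. The other 3 of these were Dab2, an endocytic adaptor, with a log2 difference of -0.13 and groups that overlapped, Card6 with -0.09 and both knockout libraries below, and Prkaa1, a catalytic subunit of AMP-activated protein kinase, with 0.37 and groups that overlapped. Prkaa1 had 4.67 and 3.62 scaled FPKM in the knockout libraries, against 3.77 and 2.29 in the wild type libraries. These genes were chosen for their position after the values of C6 and C9 were seen.

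Endothelial cell markers added up to 52.9 and 67.0 scaled FPKM in the knockout libraries and 45.7 and 57.4 in the wild type libraries. This is over 6 of 7 markers, of which 1 lay above (22.3% of all genes), 1 below (23.8% of all genes) and 4 overlapped. The neutrophil, lymphocyte and cholangiocyte lists had 1 tested marker each, and 4 of the 6 neutrophil markers had no locus in any library.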
